A study of Danio rerio with 14 samples.

Results

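The proteasome subunit genes of the zebrafish were followed over embryos and a cell line on Affymetrix Zebrafish GeneChip arrays. A gene was a member when the probe gene table of the array gave a probe set its symbol alone and that symbol began with psm, a letter from a to g and a digit. This rule uses names and no measured value. It found 61 probe sets of 50 genes, out of 15502 probe sets and 8793 named genes, and each gene was represented by its brightest probe set, by the mean of all arrays. Of the 50 genes, 41 code for constitutive parts of the proteasome, its assembly chaperones, an activator or an inhibitor, and 7 belong to the immune forms (psmb8a, psmb9a, psmb10, psmb12, psmb13a, psme1 and psme2). The remaining 2, psmc3ip and psme3ip1, carry a psm name but code for proteins that bind a subunit or an activator and are no part of the particle.

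The series has 14 arrays in 7 groups of 2. Embryos of the Ekkwill (EK) strain from natural matings were taken whole at 4, 6 or 9 hpf (hours after fertilization), either untreated or kept in fish water with retinoic acid (RA) from the 2-cell stage until harvest. The last group is ZF4, an established fibroblastic line derived from zebrafish embryos. The sample titles name no mutation or transgene for any group and no strain for ZF4. RNA was taken from whole samples, so fewer cells of a type and less RNA per cell cannot be told apart. A whole embryo averages all of its cell types. Nothing in the labels tells whether paired arrays stem from different clutches or cultures, so p-values measure only the spread between these samples, which may be technical.

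The 26S proteasome degrades proteins that carry ubiquitin chains. Its core, the 20S particle, is a barrel with outer rings of alpha subunits that gate the entrance and inner rings of beta subunits, of which those encoded by psmb5, psmb6 and psmb7 cut peptide bonds. The 19S particle caps the barrel: its base holds the ATPases (psmc genes) that unfold and feed in the substrate together with ubiquitin receptors, and its lid removes the ubiquitin. The psmd genes are shared among base, lid and assembly chaperones. Interferon and immune cells exchange the cutting subunits for immune forms, which change the peptides handed to MHC class I molecules. Eggs are stocked with maternal mRNA, and the zygotic genome of the zebrafish is switched on shortly before the first stage sampled here.

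All values are on the log2 scale, and a level is compared within a probe set, never between probe sets. Array medians lay between 6.109 and 6.305, and arrays of the same group correlated with r of 0.9287 to 0.9521 over all probe sets. Background was set at 5.302, the 95th percentile of 238 values from 17 tag control probe sets that match no zebrafish transcript. Of the 50 members, 44 stood above it on all 14 arrays, 40 of the 41 constitutive genes among them. A change was called when limma's adjusted p (Benjamini-Hochberg over all 15502 probe sets) was under 0.05, and each change is given ± its standard error, with 2 arrays in each group. As markers of age, all 8 measured maternal and oocyte genes of a fixed list were called lower at 6 than at 4 hpf in untreated embryos, against 20.9% of all probe sets. Their summed level fell from between 13.96 and 14.49 to between 11.15 and 11.44. Of 8 markers of the enveloping layer, the outer epithelium of the embryo, 7 were called higher in the same step, against 19.1% of all probe sets. Their summed level was 9.01 and 12.28 on the 2 arrays of 4 hpf and 14.49 and 14.58 at 6 hpf. The 2 untreated arrays of 4 hpf were thus unlike in these markers. They were also unlike in the summed mesoderm and tailbud markers (7.82 and 11.22). The median absolute difference between these 2 arrays over the constitutive genes, 0.265, was the largest of any group. The part of changing cell types in the results below was not tested. In ZF4, 6 of 10 fibroblast markers were called higher than at 9 hpf and 2 lower, against 21.6% (higher) and 23.8% (lower) of all probe sets. Of these markers 1 was at or below background on both ZF4 arrays.

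Between 4 and 6 hpf, as gastrulation begins, transcripts of most core genes and of 11 of the 18 cap genes rose in untreated embryos. Of the 50 members, 28 were called higher and 3 lower, against a background of 19.1% (higher) and 20.9% (lower) of all probe sets. The constitutive genes contributed 26 of the higher calls and all 3 lower ones, with a median change of 0.65 (1.56-fold; 0.58 with psma6l at 4 hpf raised to background) against 0.05 over all probe sets. Members are mostly well expressed, and among the 9364 probe sets with a mean above background 26.3% were called higher and 29.6% lower, with a median of -0.07. On the single arrays, the median of the constitutive genes relative to the mean of untreated 4 hpf was -0.06 and 0.06 at 4 hpf, 0.62 and 0.59 at 6 hpf, 1.13 and 1.04 at 9 hpf, and 1.66 and 1.65 in ZF4. The 2 arrays of a group therefore stood closer to each other than to any array of the next stage.

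**Figure D1:**
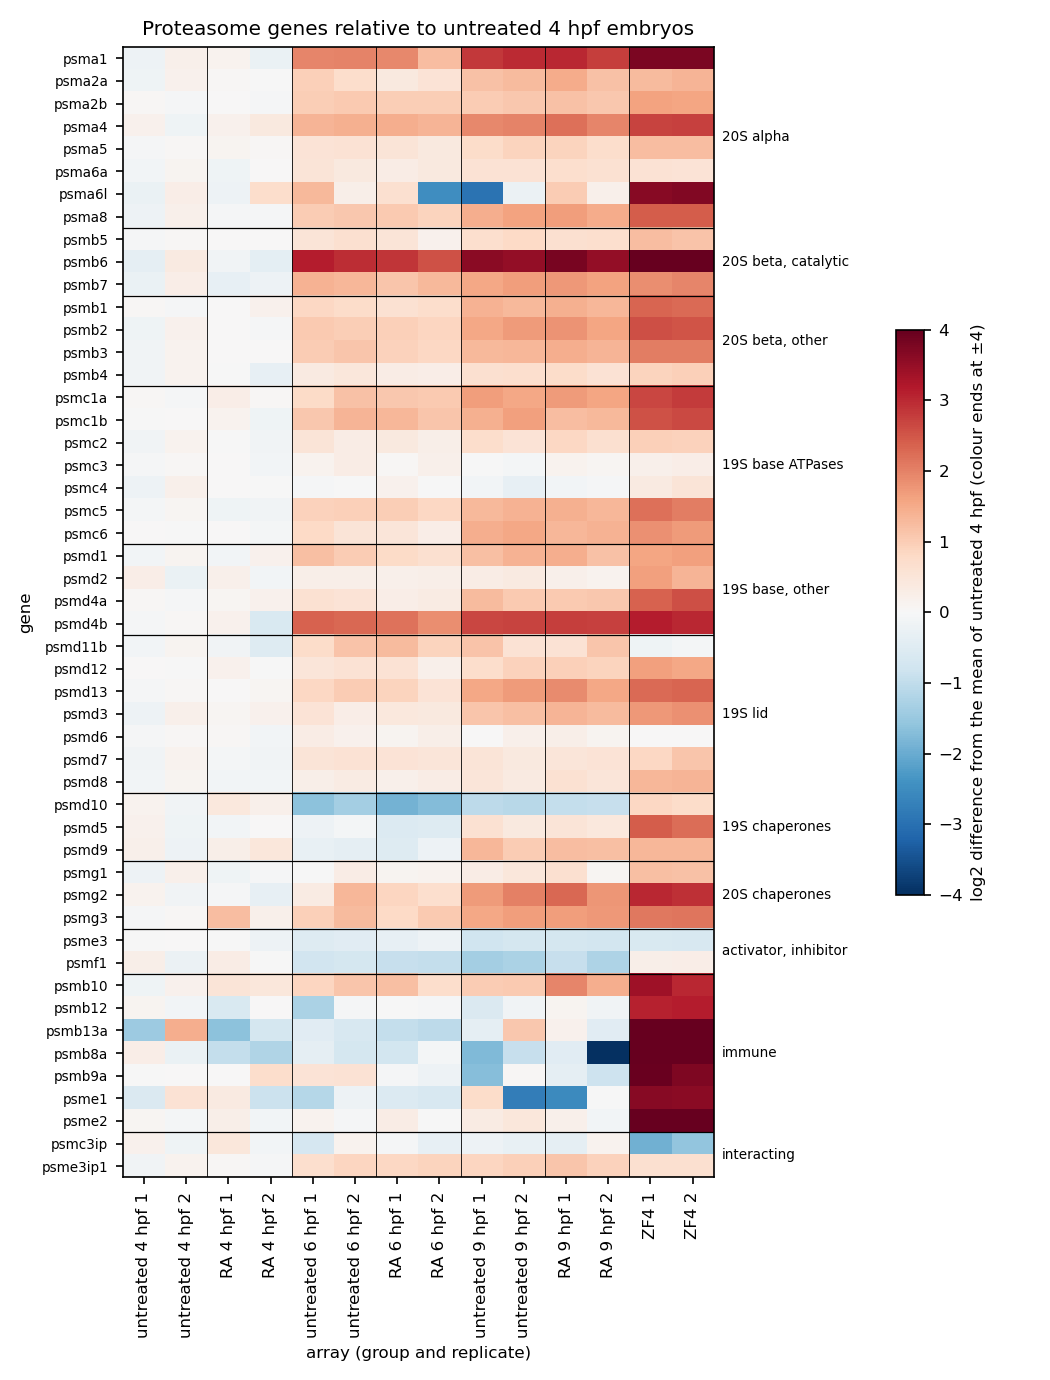
Log2 value of each of the 50 members (rows, grouped by role) on each of the 14 arrays (columns) minus the mean of that gene in untreated 4 hpf embryos, with colour ending at ±4. Most rows of the core and cap turn redder from 4 to 9 hpf with and without RA, psmd10, psme3 and psmf1 turn blue, and the 7 immune rows are deep red in ZF4 alone.

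The cutting subunits of the core were all called higher at 6 than at 4 hpf, but by very different amounts. psmb6, which codes for the subunit with caspase-like activity, had values of 6.79 and 7.52 at 4 hpf and 10.29 and 10.11 at 6 hpf. This increase of 3.05 ± 0.24 (8.25-fold, adjusted p = 2.44e-05) was the largest of any member. psmb7, for the trypsin-like subunit, went from 9.56 and 10.1 to 11.22 and 11.16, an increase of 1.36 ± 0.17 (2.57-fold, adjusted p = 0.000175). psmb5, for the chymotrypsin-like subunit, went from 9.34 and 9.45 to 9.91 and 10.03, and its 0.58 ± 0.15 (1.49-fold, adjusted p = 0.0134) was not called without replicate 1 of 4 hpf (adjusted p = 0.0718) or replicate 2 of 6 hpf (adjusted p = 0.0795). For all 3 genes both arrays of 6 hpf lay above both arrays of 4 hpf.

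The other rings rose with them. Counts in this paragraph stand against 19.1% of all probe sets called higher. All 4 beta genes without a catalytic product were called higher, from psmb4 at 0.40 ± 0.14 to psmb3 at 1.06 ± 0.13. The call of psmb4 was lost with quantile normalization (adjusted p = 0.209) and without replicate 1 of 4 hpf (0.255) or either array of 6 hpf (0.0979 and 0.162). Of the 8 alpha genes 7 were called higher. psma1 led them, with 7.73 and 8.12 at 4 hpf against 9.87 and 9.9 at 6 hpf (1.95 ± 0.24, 3.88-fold, adjusted p = 0.000174). It was followed by psma4, with 9.11 and 8.79 against 10.31 and 10.37 (1.39 ± 0.16, 2.62-fold, adjusted p = 0.000102), and the smallest called change was that of psma6a (0.44 ± 0.13), lost without replicate 1 of either stage (adjusted p = 0.139 and 0.125). The eighth, psma6l, lay at or near background in embryos and is described with ZF4.

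In the 19S cap the picture was mixed, with 19.1% of all probe sets called higher as the background of the counts. Of the 7 ATPase genes of the base 4 were called higher, led by psmc1b (1.21 ± 0.19), and psmc4 stood at 10.41 and 10.8 at 4 hpf and 10.55 and 10.59 at 6 hpf (-0.04 ± 0.15, 95% interval -0.38 to 0.30). Of the 4 other base genes 3 were called higher. The largest change among them belonged to psmd4b, 1 of the zebrafish genes for the ubiquitin receptor of the cap, with 6.95 and 7.06 at 4 hpf and 9.36 and 9.29 at 6 hpf (2.32 ± 0.25, 4.99-fold, adjusted p = 7.99e-05). Of the 7 lid genes 4 were called higher, from psmd12 at 0.53 ± 0.16 to psmd11b at 0.95 ± 0.28. The call of psmd12 was lost whichever of the 4 arrays was left out (adjusted p from 0.0663 to 0.115). A second probe set of psmd12 rose by 1.23 (adjusted p = 0.0374). The lowest lid change, that of psmd6 (0.24 ± 0.13), was not called. Both psmd4b and psmd11b were read by 1 probe set, and psmd11b was not called without replicate 1 of 4 hpf (adjusted p = 0.112) or replicate 2 of 6 hpf (adjusted p = 0.142).

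**Figure D2:**
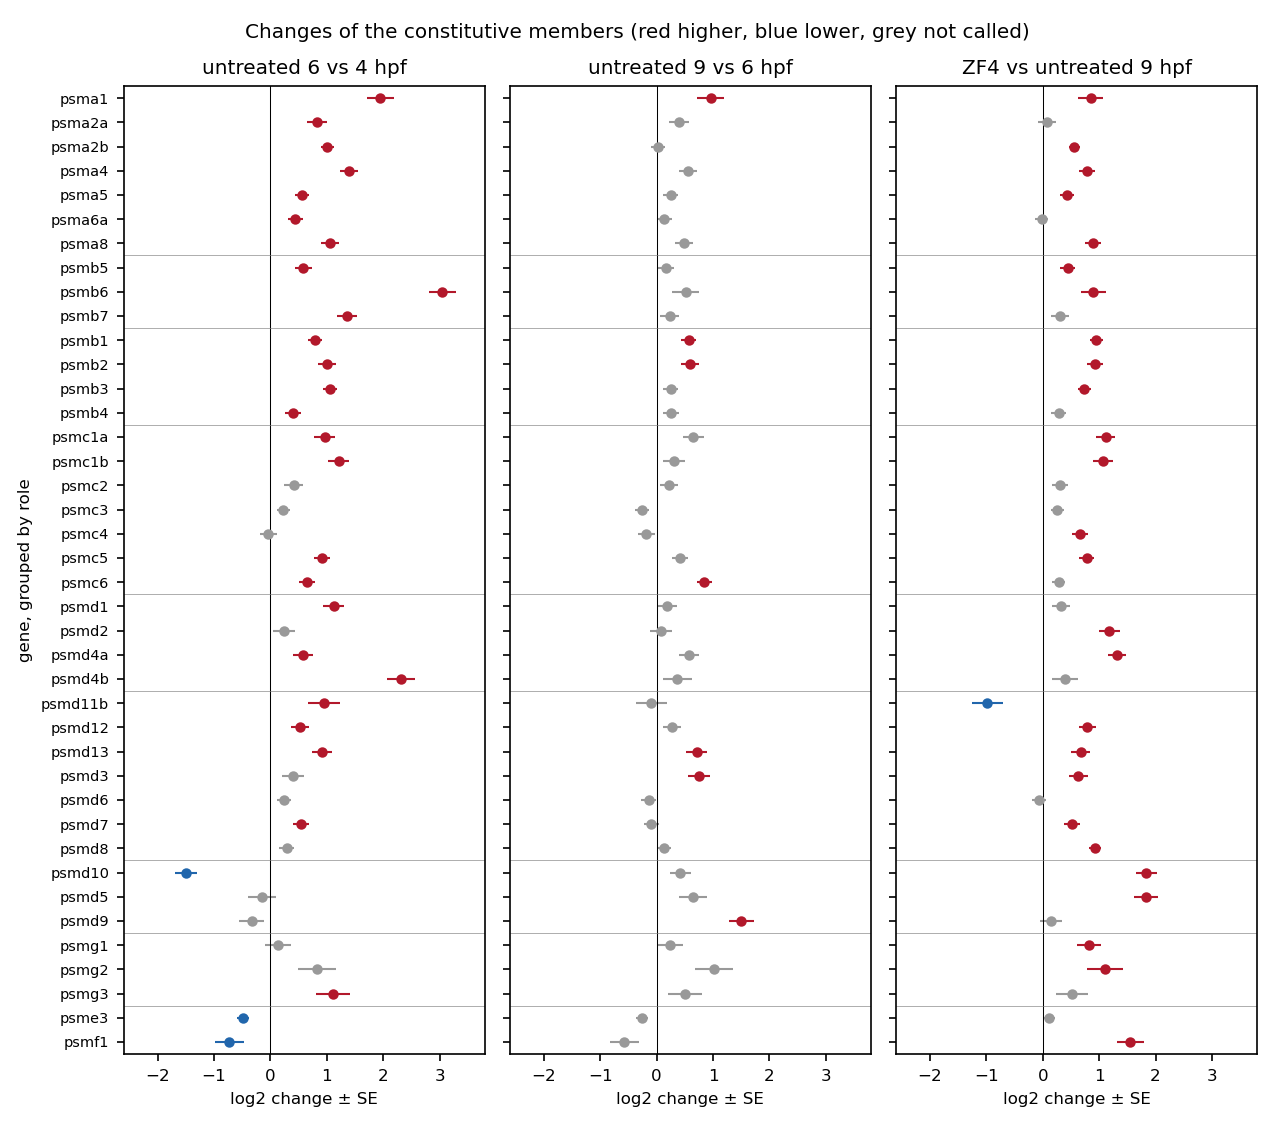
Log2 change ± standard error (x axis) of 40 constitutive members (y axis, grouped by role; psma6l, at or near background in embryos, is left out) from 4 to 6 hpf and from 6 to 9 hpf in untreated embryos and from untreated 9 hpf embryos to ZF4, coloured by call. The left panel runs from -1.5 for psmd10 to 3.05 for psmb6, the middle panel has 7 red points and no blue one, and the right panel has 1 blue point, psmd11b.

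The 3 members called lower were none of the core or cap subunits. psmd10 codes for gankyrin, a chaperone that holds an ATPase while the base of the cap is put together. It had 9.61 and 9.31 at 4 hpf and 7.81 and 8.12 at 6 hpf, a change of -1.5 ± 0.19 (2.82-fold lower, adjusted p = 0.000224). psme3, for an activator ring found mainly in nuclei, had 11.46 and 11.49 at 4 hpf and 10.97 and 11.01 at 6 hpf (-0.49 ± 0.11, adjusted p = 0.00578), and its call was lost when all arrays were moved to a common median (adjusted p = 0.0699). psmf1, for a protein that inhibits the isolated core, had 8.34 and 7.87 against 7.35 and 7.39 (-0.73 ± 0.26, adjusted p = 0.0433). This call is fragile: it was lost with quantile normalization (adjusted p = 0.245), with a common median (adjusted p = 0.12) and without replicate 1 of 4 hpf (adjusted p = 0.262), replicate 1 of 6 hpf (adjusted p = 0.142) or replicate 2 of 6 hpf (adjusted p = 0.114). A second probe set of psmf1 showed a larger decrease of 2.00 (adjusted p = 0.00291).

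The other assembly chaperones did not share one direction at this step. Of the cap chaperones, psmd5 (-0.15 ± 0.25) and psmd9 (-0.33 ± 0.22) were not called. Of the chaperones that build the alpha ring, psmg3 was called higher (1.11 ± 0.30, adjusted p = 0.0141; 0.0645 without replicate 1 of 4 hpf and 0.09 without replicate 2 of 6 hpf), while psmg2 (0.83 ± 0.34, adjusted p = 0.08) and psmg1 (0.14 ± 0.23) were not. The 2 arrays of psmg2 at 6 hpf were far apart, at 7.06 and 8.05, and without the first of them the change was 1.33 and called (adjusted p = 0.0185). Of the genes that are no part of the particle, psme3ip1, whose human counterpart binds the psme3 activator, was called higher (0.75 ± 0.18, adjusted p = 0.00681; 0.0513 without replicate 2 of 6 hpf), though none of its other 3 probe sets was (0.44, 0.22 and -0.10), and psmc3ip, known from meiotic recombination, was not (-0.27 ± 0.34).

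Genes listed as partners or regulators of the proteasome under other names were taken from fixed lists. The counts below stand against 19.1% (higher) and 20.9% (lower) of all probe sets. Of 12 measured partners 7 were called higher and 3 lower at 6 hpf against 4 hpf. The higher ones included adrm1, a ubiquitin receptor of the cap (1.33 ± 0.21), sem1, a small lid subunit (1.00 ± 0.20), and pomp, which helps mature the beta rings (0.85 ± 0.13). The largest decreases were those of aktip (-3.13 ± 0.41) and of ecpas, which tethers the core to the cap (-2.5 ± 0.29). The product of aktip is not itself a proteasome subunit, and its place on the list as a partner was not checked here. Of 20 genes for ubiquitin, its activating and conjugating enzymes and shuttle factors, 7 were called higher and 4 lower. Their median was 0.08 against 0.05 over all probe sets. The shuttle gene ubqln4 rose by 2.25 ± 0.25, while ube2g2, a conjugating enzyme of the endoplasmic reticulum, fell by 2.52 ± 0.34 and nploc4, a cofactor of the segregase VCP, changed by -2.31 ± 0.34. Of 5 measured transcription factors of proteasome genes and their regulators 3 were called higher: maff (2.11 ± 0.40), nfe2l3 (0.83 ± 0.22) and ngly1 (0.70 ± 0.24). Of 11 genes for antigen presentation and interferon 1 was called higher, b2m (2.19 ± 0.48), and 1 lower, irf7, which was at least 1.63-fold lower.

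From 6 to 9 hpf fewer members were called in untreated embryos, with a smaller median change. Of the 50 members 7 were called higher and 0 lower, against 4.37% (higher) and 5.74% (lower) of all probe sets. All 7 are constitutive, and the median of the 41 constitutive genes was 0.28 against 0.01 over all probe sets, with 33 of the 41 changes above 0. Among probe sets above background 5.6% were called higher and 8.49% lower. The count rests on few arrays: it was 2 without replicate 1 of 6 hpf, 3 without replicate 2 of 6 hpf, 2 without replicate 1 of 9 hpf and 2 without replicate 2 of 9 hpf. At an unadjusted p under 0.05, 1 member had a negative change, psme3 (-0.26 ± 0.11). In the same step 6 of the 8 maternal and oocyte genes were called lower, with a summed level of 11.15 to 11.44 at 6 hpf and of 8.45 to 8.89 at 9 hpf, and 4 of 7 neural markers were called higher, with a summed level of 12.84 to 12.88 and then of 13 to 13.04. None of the 8 markers of the enveloping layer was called. The part of these markers in the result was not tested.

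The largest increase from 6 to 9 hpf was that of psmd9, the gene for a chaperone of the ATPase ring. It had 7.81 and 7.73 at 6 hpf and 9.44 and 9.11 at 9 hpf, an increase of 1.5 ± 0.22 (2.83-fold, adjusted p = 0.00259), and its second probe set rose by 1.62 (adjusted p = 0.00513). psma1 rose again, from 9.87 and 9.9 to 10.77 and 10.91 (0.96 ± 0.24, adjusted p = 0.0332). The ATPase gene psmc6 went from 10.6 and 10.33 to 11.26 and 11.36 (0.85 ± 0.14, adjusted p = 0.00418). The lid gene psmd3 went from 8.86 and 8.58 to 9.42 and 9.52 (0.75 ± 0.19, adjusted p = 0.0328). In each of these genes both arrays of 9 hpf lay above both of 6 hpf. The calls of psma1 and psmd3, and that of the lid gene psmd13 (0.71 ± 0.18), were lost when any 1 of the 4 arrays was left out. psmb5 (0.16 ± 0.15), psmb6 (0.52 ± 0.24) and psmb7 (0.23 ± 0.17) were not called at this step.

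**Figure D3:**
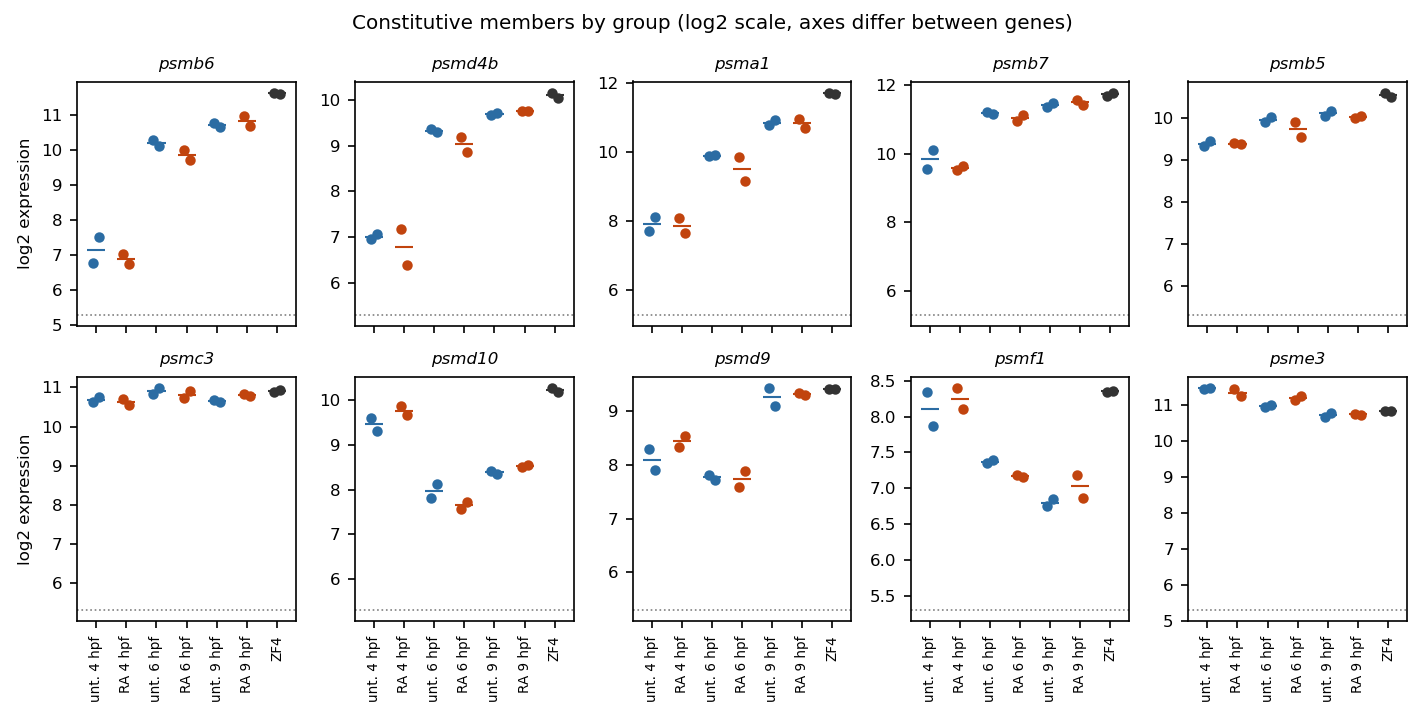
Log2 expression (y axis, with its own range for each gene) of 10 constitutive members on each array, in the order untreated and RA-treated embryos of 4, 6 and 9 hpf and ZF4 (x axis); points are arrays, bars are group means of 2 and the dotted line is the background of 5.302. psmb6, psmd4b and psma1 climb most between 4 and 6 hpf, psmd10 drops by 1.5 and psmd9 climbs only after 6 hpf.

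Over the whole interval from 4 to 9 hpf, 33 members were called higher and 3 lower in untreated embryos, against 21.8% (higher) and 24.3% (lower) of all probe sets. This comparison shares its arrays with both steps above. The constitutive median was 1.15 (all probe sets, 0.06). psmb6 was 11.8-fold higher (3.57 ± 0.24), psma1 7.53-fold (2.91 ± 0.24), psmd4b 6.45-fold (2.69 ± 0.25) and psma4 3.84-fold (1.94 ± 0.16). The genes called lower were again psmf1 (-1.30 ± 0.26), psmd10 (-1.08 ± 0.19) and psme3 (-0.75 ± 0.11). The smallest changes among well-expressed subunits were those of psmc3 (-0.03 ± 0.12, 95% interval -0.30 to 0.23), psmc4 (-0.22 ± 0.15, interval -0.56 to 0.12) and psmd6 (0.10 ± 0.13, interval -0.19 to 0.40). Leaving out psma6l, which lay at or near background, subunits of the same particle thus covered a range from -0.22 to 3.57 on the log2 scale. The intervals of the extremes do not meet, but the extremes were picked from these same values, so this is no test.

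Duplicated genes did not always move alike. psmd4a, the second ubiquitin receptor gene, had 7.89 and 7.82 at 4 hpf, 8.48 and 8.39 at 6 hpf and 9.13 and 8.9 at 9 hpf, so it rose by 0.58 ± 0.18 in the step in which psmd4b rose by 2.32 ± 0.25. The call of psmd4a in that step was lost whichever of the 4 arrays was left out (adjusted p from 0.0644 to 0.114). In ZF4 the order turned, with psmd4a 1.31 ± 0.16 above 9 hpf embryos and psmd4b 0.40 ± 0.23. The difference between the paralogs was not tested, and probe sets of near-identical genes can share transcripts. psmc1a and psmc1b changed by 0.96 ± 0.19 and 1.21 ± 0.19 from 4 to 6 hpf, and psma2a and psma2b by 0.83 ± 0.18 and 1.01 ± 0.12. The name of the probe set used for psmc1b marks possible hybridization to other transcripts. Another probe set of psmc1b, without this mark, rose by 1.37 (adjusted p = 0.0017) from 4 to 6 hpf. The remaining one, with a mean of 1.66 and so below background, changed by -1.25 and was not called.

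RA treatment gave no called change of a proteasome gene. Between RA-treated and untreated embryos of the same age 0 members were called at 4, 6 or 9 hpf by limma, where 0.0903%, 0.284% and 0% of all probe sets were called in either direction. At an unadjusted p under 0.05 there was 1 member at 4 hpf (psmg3), 1 at 6 hpf (psmd1) and 0 at 9 hpf. The median difference of the constitutive genes, RA minus untreated, was -0.01, -0.10 and 0.06 at the 3 stages. Over all probe sets it was -0.08, -0.02 and -0.01. Of the 41 constitutive differences 19, 7 and 31 were above 0, a description over genes that share each array. The 95% interval of the difference lay within 1 log2 unit of 0 for 39, 40 and 40 of the 41 constitutive genes, so these intervals did not reach a 2-fold difference. The exceptions were psma6l at each stage and psmg3 at 4 hpf, whose RA arrays stood at 8.27 and 7.26 against 7.01 and 7.09 without RA. These bounds do not cover the immune genes. At 9 hpf the interval of each immune gene passed 1 log2 unit, as in psmb10 (-0.06 to 1.38) and psme1 (-2.67 to 2.18). A 2-fold difference of the immune genes thus lay within their intervals. psmd1 had 9.49 and 9.38 with RA and 9.94 and 9.75 without it at 6 hpf, on a probe set whose name marks possible hybridization to other transcripts. None of the 4 lists of other pathway genes held a call at any stage. Of 5 genes known to respond to RA 1 was called higher at 4 hpf, 3 at 6 hpf (with 1 lower) and 0 at 9 hpf. Their median difference at 9 hpf was still 2.69, with 1 of them at or below background on both untreated arrays. Their summed level there was 12.85 to 13.05 with RA and 12.05 to 12.16 without it. A missing call at 9 hpf therefore does not show a missing response.

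The same stage steps were measured in the embryos kept with RA. From 4 to 6 hpf, 24 members were called higher and 3 lower in RA-treated embryos, against 21.2% (higher) and 19.3% (lower) of all probe sets. The median of the constitutive genes was 0.41 against 0.14 over all probe sets. psmb6 went from 7.03 and 6.76 to 10.01 and 9.72 (2.97 ± 0.24), psmd4b rose by 2.25 ± 0.25, psma1 by 1.63 ± 0.24 and psmb7 by 1.47 ± 0.17. psmd10 went from 9.87 and 9.67 to 7.56 and 7.73 (-2.13 ± 0.19), psmf1 changed by -1.08 ± 0.26 and psmd9 by -0.70 ± 0.22. Without replicate 1 of RA 4 hpf only 1 of these decreases was called, with adjusted p = 0.0601 for psmf1 and 0.0551 for psmd9, and psmd9 was not called without replicate 2 of RA 4 hpf (0.128) or replicate 1 of RA 6 hpf (0.163) either. Of the genes called higher, 22 were shared with untreated embryos, 22 of 28 and 22 of 24, and psmd10 and psmf1 were called lower in both series. The overlap of calls over all probe sets was not counted, so this sharing is not shown to be particular to these genes. These 2 series of embryos have no array in common, but they are not shown to be independent. Over probe sets above background, the difference between a group's 2 arrays correlated between the series at 4 and 9 hpf only. The correlation was 0.57 at 4 hpf, -0.02 at 6 hpf and -0.7 at 9 hpf. Across the 40 constitutive genes without psma6l the changes of the 2 series correlated with r = 0.955 and rho = 0.886 (0.904 and 0.856 with it), a description over genes that share each array.

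From 6 to 9 hpf, 18 members were called higher and 1 lower with RA, against 6.77% (higher) and 9.26% (lower) of all probe sets, and the constitutive median was 0.55 against 0.06 over all probe sets. psmd9 led again (1.58 ± 0.22), before psma1 (1.31 ± 0.24), psmg2 (1.28 ± 0.34) and the lid gene psmd13 (1.00 ± 0.18), and psme3 was called lower (-0.45 ± 0.11). All 7 genes called higher in untreated embryos were among the 18, again without a count of such overlap over all probe sets. The count fell to 7 without replicate 1 of RA 6 hpf, 4 without its replicate 2, 5 without replicate 1 of RA 9 hpf and 10 without its replicate 2, and psme3 was not called without replicate 2 of RA 6 hpf (adjusted p = 0.141) or either array of RA 9 hpf (0.0831 and 0.0848). Without replicate 2 of RA 6 hpf psma1 and psmd13 were not called either (adjusted p = 0.0542 for both), and psmg2 was called only when both arrays of RA 6 hpf and replicate 1 of RA 9 hpf were in the fit. Without replicate 1 of RA 9 hpf the immune gene psmb8a was called lower (-3.66, adjusted p = 0.0145) on the one remaining array of that group, at 1.3, with every array of that comparison below background. With RA 8 of the 8 maternal and oocyte genes were called lower from 4 to 6 hpf, against 19.3% of all probe sets. From 6 to 9 hpf 7 of the 8 were called lower, and 3 of 7 neural markers were called higher. The larger count with RA is not shown to be a difference. In the test of the RA effect at 9 hpf minus that at 6 hpf 0 members were called, and likewise for 6 minus 4 hpf, with 0.00645% of all probe sets called in each. In each of these tests 1 constitutive member had an unadjusted p under 0.05, psmd10 for 6 minus 4 hpf (-0.63 ± 0.27) and psma6l for 9 minus 6 hpf, with arrays below background. Across the 40 constitutive genes without psma6l the changes correlated with r = 0.928 and rho = 0.921, and with psma6l r was 0.346 and rho 0.79.

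**Figure D4:**
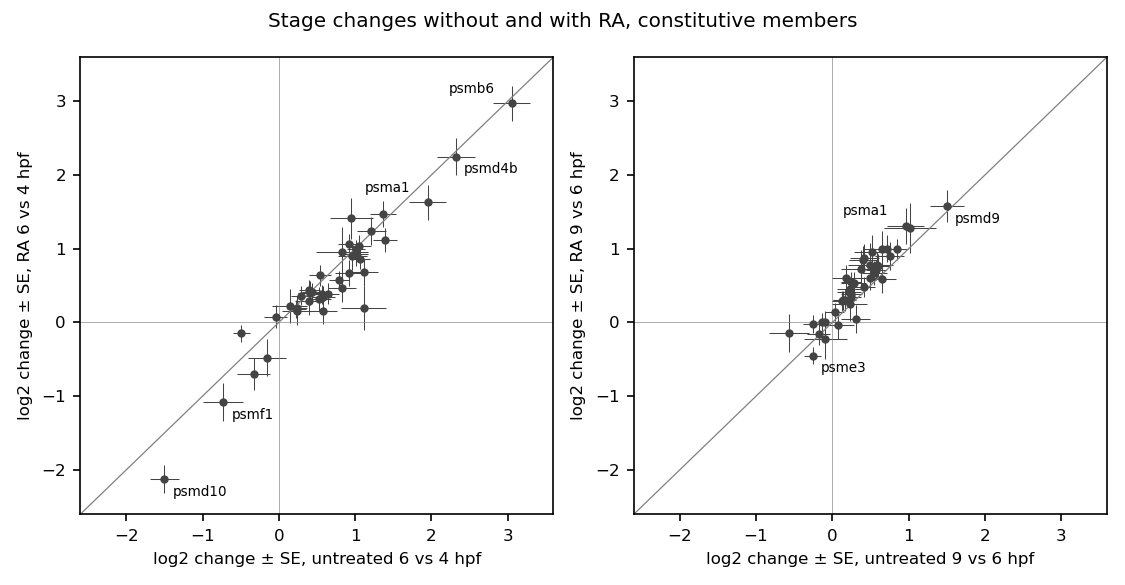
Log2 change ± standard error of 40 constitutive members (psma6l left out) in untreated embryos (x axis) and RA-treated embryos (y axis) from 4 to 6 hpf (left) and from 6 to 9 hpf (right); the grey diagonal marks equal change. On the left (r = 0.955) points run from psmd10 at the lower left to psmb6 at the upper right, 29 of 40 below the diagonal, and on the right (r = 0.928) psmd9 stands highest and 35 of 40 lie above the diagonal. The panels share the 6 hpf arrays, which enter with opposite sign. A lower level with RA at 6 hpf therefore moves points below the diagonal on the left and above it on the right. At 6 hpf the median of RA minus untreated was -0.1 over the 41 constitutive genes, with 34 of the 41 negative. The sides on which the points lie are thus not separate results.

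The ZF4 line differed most in the immune subunits. Against untreated 9 hpf embryos 34 members were called higher and 2 lower, against 21.6% (higher) and 23.8% (lower) of all probe sets. All 7 immune members were among the higher ones, with a median of 3.47 once the 9 hpf values of psmb8a, psmb9a and psmb13a are raised to background (4.24 as fitted), while 27 of the 41 constitutive genes were called higher and 1 lower, with a median of 0.67 (all probe sets, -0.08). Among probe sets above background 26.7% were called higher and 34% lower. Over 81 results of the alternative settings and of leaving out 1 array, the lowest change of an immune gene in ZF4 was 1.9. Not every immune gene has a result under every alternative. Each of the 7 has 1 probe set, so the lowest-mean alternative only repeats the main result.

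psmb8a codes for the immune form of the psmb5 subunit. Its values were 9.71 and 9.52 in ZF4 and 3.58 and 4.45 in untreated 9 hpf embryos, where both arrays lay below background, so it was at least 19.9-fold higher (adjusted p = 0.000288). Of the 12 embryo arrays 11 had it at or below background, and the other stood at 5.62. psmb9a, the immune form of psmb6, had 7.84 and 7.63 in ZF4 and 2.2 and 3.95 at 9 hpf, at least 5.41-fold higher (adjusted p = 7.36e-05), and was below background on all embryo arrays. psmb13a, which in zebrafish resembles the immune form of psmb7, had 8 and 7.27 against 2.68 and 4.11, at least 5.04-fold higher (adjusted p = 0.00262), and was below background on all embryo arrays too. psmb12, a further zebrafish gene of the psmb6 type, had 8.96 and 9.01 in ZF4 and 5.3 and 5.74 at 9 hpf, an increase of 3.47 ± 0.43 (adjusted p = 4.44e-05), with 1 of the 9 hpf arrays above background.

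psmb10, the immune form of psmb7, was the one immune beta gene above background on all embryo arrays. It had 5.57 and 5.92 at 4 hpf, 6.6 and 6.85 at 6 hpf, 6.77 and 6.79 at 9 hpf and 9.14 and 8.77 in ZF4. The last step was 2.18 ± 0.30 (4.52-fold, adjusted p = 0.000104), the smallest of the 7. It was also the one immune gene called between 4 and 6 hpf (0.98 ± 0.33, adjusted p = 0.0345), a call lost without replicate 1 of 4 hpf (adjusted p = 0.162), replicate 1 of 6 hpf (adjusted p = 0.0724) or replicate 2 of 6 hpf (adjusted p = 0.147). Over 4 to 9 hpf it was called (1.04 ± 0.33, adjusted p = 0.0236), but not without replicate 1 of 4 hpf (adjusted p = 0.118), replicate 1 of 9 hpf (adjusted p = 0.078) or replicate 2 of 9 hpf (adjusted p = 0.0837). The other 6 immune genes were called in no comparison between embryos.

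psme1 and psme2 code for the activator ring that interferon induces in mammals. psme2 stood at 6.4 and 6.54 in 9 hpf embryos and 10.2 and 10.11 in ZF4, an increase of 3.69 ± 0.28 (12.9-fold, adjusted p = 1.06e-06), and all 12 embryo arrays lay between 5.96 and 6.54. psme1 had 10.32 and 10.3 in ZF4 and 7.41 and 3.91 at 9 hpf (4.65 ± 1.02, adjusted p = 0.00278), with 1 of the 9 hpf arrays above background. The related activator gene psme3, which is not part of the interferon response, was not called: it had 10.85 on both ZF4 arrays and 10.67 and 10.78 at 9 hpf (0.12 ± 0.10, adjusted p = 0.356).

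**Figure D5:**
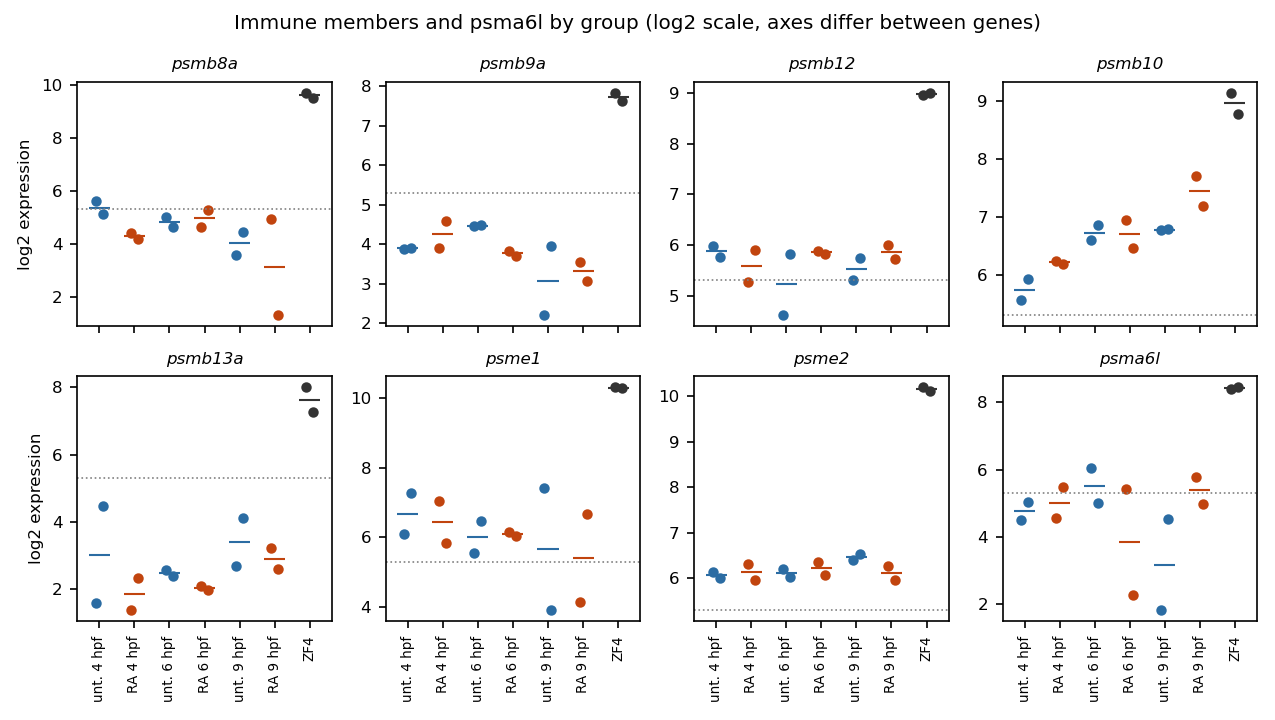
Log2 expression (y axis, with its own range for each gene) of the 7 immune members and psma6l on each array, in the order untreated and RA-treated embryos of 4, 6 and 9 hpf and ZF4 (x axis); points are arrays, bars are group means of 2 and the dotted line is the background of 5.302. Both ZF4 arrays lie above every embryo array in all 8 panels, and psmb9a and psmb13a are below the line in all embryos.

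None of the constitutive counterparts of the immune beta genes was called lower in ZF4. psmb5 had 10.62 and 10.52 in ZF4 against 10.07 and 10.19 at 9 hpf (0.44 ± 0.14, adjusted p = 0.0242), a call lost without replicate 1 of 9 hpf (adjusted p = 0.125), replicate 1 of ZF4 (adjusted p = 0.133) or replicate 2 of ZF4 (adjusted p = 0.0647). psmb6 had 11.64 and 11.61 against 10.77 and 10.67 (0.90 ± 0.22, adjusted p = 0.00542). psmb7 had 11.69 and 11.78 against 11.36 and 11.49 and was not called (0.31 ± 0.16, adjusted p = 0.138). Levels of an immune gene and its counterpart come from different probe sets and were not compared.

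In the GRCz12tu gene table psmb8a, psmb9a, psmb12 and psmb13a lie next to each other with 0 protein-coding genes between neighbours. psmb10, psme1 and psme2 lie elsewhere. The 50 members are spread over 21 chromosomes, and only these 4 have another member as a direct neighbour.

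Genes of antigen presentation and interferon signalling stood high in ZF4 as well. Of 11 measured, 9 were called higher and 0 lower, against 21.6% (higher) and 23.8% (lower) of all probe sets. At 9 hpf 7 of the 11 were at or below background on both arrays, 1 of them in ZF4 too. mhc1ufa, an MHC class I gene, was at least 87.3-fold higher, the interferon regulatory factor irf1b at least 26.1-fold and irf7 at least 12-fold, and b2m, the light chain of MHC class I, was higher by 4.76 ± 0.43. The 10 blood and immune cell markers were all at or below background on both ZF4 arrays, with a summed level of 6.68 to 6.78 against 10.35 to 10.92 at 9 hpf, where 8 of the 10 were at or below background. None of them was called higher in ZF4 and 1 was called lower.

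Among the constitutive members psma6l stood apart in ZF4. This second zebrafish gene of the psma6 type had 8.41 and 8.45 in ZF4 against 1.82 and 4.52 at 9 hpf, at least 8.74-fold higher (adjusted p = 0.00116), and its embryo values ran from 1.82 to 6.05 on both sides of background. psma6a, its paralog, had 10.63 and 10.6 in ZF4 and 10.64 and 10.64 at 9 hpf (-0.02 ± 0.12, adjusted p = 0.896).

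The cap chaperones came next. psmd10 had 10.28 and 10.19 in ZF4 against 8.42 and 8.36 at 9 hpf (1.84 ± 0.18, adjusted p = 6.38e-06), which is above both arrays of 4 hpf as well. psmd5 had 9.63 and 9.46 against 7.83 and 7.6 (1.83 ± 0.22, adjusted p = 3.39e-05). psmd9 did not pass (0.15 ± 0.20, adjusted p = 0.604). The inhibitor gene psmf1 had 8.34 and 8.36 against 6.75 and 6.85 (1.55 ± 0.24, adjusted p = 0.000222). Thus psmd10 and psmf1, called lower at 9 than at 4 hpf in untreated embryos, were called higher in the line. The decrease of psmd10 lay before 6 hpf. From 6 to 9 hpf it changed by 0.42 ± 0.19 in untreated embryos, which was not called. With RA it was called higher in that step (0.88 ± 0.19, adjusted p = 0.0128), a call lost whichever array of the step was left out.

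Core and cap genes were higher by smaller steps. The counts in this paragraph stand against 21.6% (higher) and 23.8% (lower) of all probe sets. Of the 7 lid genes 5 were called higher, up to psmd8 at 0.93 ± 0.11, and 4 of the 7 ATPase genes, up to psmc1a at 1.12 ± 0.17. The lid gene psmd11b went the other way, with 7.84 and 7.95 in ZF4 against 9.14 and 8.59 at 9 hpf (-0.98 ± 0.27, adjusted p = 0.0108), a call lost without replicate 1 of 9 hpf (adjusted p = 0.104) or replicate 1 of ZF4 (adjusted p = 0.0608). psmc3ip, which is no subunit, was the other gene called lower (-1.5 ± 0.34), through a probe set whose name marks possible hybridization to other transcripts. Of the 12 partners 3 were called higher, ecpas (2.09 ± 0.27), usp14, a deubiquitinase of the cap (1.15 ± 0.16), and pomp (0.57 ± 0.12), and 2 lower, txnl1 (-1.11 ± 0.18) and akirin2, which carries proteasomes into the nucleus (-0.62 ± 0.10). Of the 20 ubiquitin and shuttle genes 11 were called higher and 4 lower, and of the 5 transcription factors and regulators 3 higher and 2 lower, with nfe2l3 at -1.82 ± 0.23.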

How the data were processed

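The deposited values are log2 expression per probe set, made by the authors with mas5 background correction and invariantset normalization (expresso, R package affy, version 2.15.2 per the labels). The probe summary is not given in the sources used here, and the log base was read from the values. Groups follow the labels, although the methods name untreated embryos on these arrays only at 9 hpf. No array pair of 91 was identical. The 115 control probe sets were left out of the 15502 tested. Means per group were fitted with limma 3.58.1 in R 4.3.3 (intensity trend), on 12 embryo arrays or, for ZF4, all 14, and tested on simulated data first. A group wholly at or below background was raised to it, and the fold is then a lower bound.

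Genes were named by rule: all immune members, psmb5, psmb6 and psmb7, the 4 largest called changes each way, extremes of each role, and up to 3 called genes per other list. Members and lists were chosen with earlier results of these data known, and the flat or fragile genes, paralogs and further called genes were added after their values were seen. The roles of psma2b, psmc3ip and psme3ip1 were set once the gene table was read. Alternatives were another normalization, an offset of 32 before the log, a filter on low values, no trend, other arrays in the fit, the lowest-mean probe set, the replicate block and each array left out. Promoter and protein sequences were not used here.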

Additional observations from a re-analysis of the deposited data

How the results depend on the processing

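Under every alternative 0 members were called for RA. The constitutive median of RA against untreated at 4 hpf, -0.01, changed sign with a common median (0.03) and without replicate 2 of untreated (0.06) or of RA (0.02) 4 hpf, and that at 9 hpf went from 0.06 to 0 without replicate 1 of RA 9 hpf. The other constitutive medians kept their direction. Moving all arrays to a common median shifted the median of all probe sets from 0.05 to 0.20 (untreated, 6 against 4 hpf) and from 0.06 to 0.19 (9 against 4 hpf). The constitutive medians of these steps then became 0.80 and 1.28, that of ZF4 0.59, the lower calls of the first step 1, the higher calls of the untreated step to 9 hpf 3 and the lower calls of the same step with RA 0. With log2(value + 32) the constitutive medians were 0.55 for 6 against 4 hpf and 1.06 for 9 against 4 hpf. Without the intensity trend the step from 6 to 9 hpf had 2 higher calls untreated and 11 higher and 0 lower with RA. With all 14 arrays in the fit the untreated step had 12 higher calls. The lowest-mean probe set gave medians of 0.37 (9 against 6 hpf) and 0.91 (9 against 4 hpf) and 1 lower call in ZF4. With that probe set psmc1b changed by -1.25 (6 against 4 hpf) and -1.04 (ZF4), on a probe set at background, and psme3ip1 by -0.10 (6 against 4 hpf), -0.45 (9 against 4 hpf), -0.14 (6 against 4 hpf with RA) and 1.2 (ZF4), each against its main direction. Over single members 77 of the other settings' results lost a call and 39 gained one, and with an array left out 156 lost and 9 gained one. The 6 results of psmc1b and psme3ip1 that turned against their main direction also changed their call and are not in these counts. A further 3542 results of the other settings and 1635 with an array left out stayed as they were, whether called or not. The cause of these shifts was not tested.

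With each array left out in turn, untreated embryos had 19 to 29 higher calls for 6 against 4 hpf, 2 to 3 for 9 against 6 hpf with a constitutive median of 0.24 to 0.39, and a median of 1.01 to 1.13 for 9 against 4 hpf. With RA there were 1 to 3 lower calls and a median of 0.36 to 0.49 for 6 against 4 hpf, and 4 to 10 higher calls, 0 to 1 lower and a median of 0.49 to 0.61 for 9 against 6 hpf. The median difference of RA at 4 hpf ran from -0.09 to 0.06. ZF4 had 1 to 2 lower calls and a median of 0.65 to 0.75. Fewer arrays by construction give fewer degrees of freedom.

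Same-numbered arrays did not deviate together throughout, with correlations of deviations from 0.57 (untreated and RA, 4 hpf) to -0.7 (untreated and RA, 9 hpf), so the numbers were not taken as pairs. With the replicate block the higher calls were 27 for untreated 6 against 4 hpf, 6 for 9 against 6 hpf, 21 and 16 for the same steps with RA and 34 for ZF4, and 0 members were called for RA. With the 4 hpf arrays paired by number and the 9 hpf arrays crossed, chosen after seeing the data, 0 members were called for RA, and over all probe sets 14 were higher and 235 lower at 4 hpf and 6 higher and 3 lower at 9 hpf. Signal against background limits psmb9a and psmb13a, below it on all embryo arrays, and psmb8a, below it on 11 of 12: their embryo values have no order there.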
